A study of Mus musculus with 26 samples.

Results

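The transcription factors Otx2, Six3, Alx4, Lmx1b, Prrx1, Prrx2, Meis1, Meis2 and Zic1 are known for patterning the embryonic eye, head and limbs, and were followed here as a set of 9 genes in the adult RPE and choroid. They were taken by name, with earlier results of these data known. Of the 9, 8 had a row among the 16426 genes of the single-cell count tables. Zic1 had none there and was followed in the tables of tissue and of cultured cells, which hold 17623 rows each. The RPE is the pigmented epithelium behind the photoreceptors. The choroid is the vascular bed beneath it, with the dense choriocapillaris against the RPE and larger vessels, stroma, pigment cells and nerves around it.

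All of these genes except Zic1 encode homeodomain proteins, whose DNA-binding domain typically reads a short AT-rich core. Otx2 and Six3 act in the forebrain and eye field, and Otx2 is kept in RPE throughout life. Alx4, Lmx1b, Prrx1 and Prrx2 mark mesenchyme, including neural crest cells around the developing eye and the limb bud. Meis1 and Meis2 are TALE homeodomain proteins that bind DNA with Pbx and Hox partners. Zic1 is a zinc finger protein of the neural plate and the neural crest.

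The scRNAseq data came from RPE/choroid of mice aged 3 months, with 1 library for the F1 hybrid strain B6129PF1/J and 1 for C57BL/6J, each from 1 male and 1 female. Tissue was compared between Ihh iΔEC/iΔEC mice, in which tamoxifen had activated a Cdh5-CreERT2 transgene and so deleted Indian hedgehog in ECs, and Ihh+/+ littermates with the same transgene and the same tamoxifen. These mice were C57BL/6J, 6 months old, and had received tamoxifen 12 weeks earlier; 3 libraries were averaged per genotype. Cultured GLI1+ cells were sorted by GFP from RPE/choroid of Gli1GFP/+ mice, labelled SWR/J but, by the study's methods, outcrossed to BALB/c before use. The cells were expanded, starved and given 100 nM SAG, an agonist of the Hedgehog transducer Smoothened, or DMSO for 24 h, again with 3 libraries averaged per condition. Further ECs, from neural retina and from lung, liver and heart, were taken from B6129PF1/J mice aged 1 month. Every gene of the bulk tables was given by the authors as 1 mean FPKM per group, so these means give no spread between libraries, and the study's own test columns were not used.

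The count tables hold 3637 cells of B6129PF1/J and 3928 cells of C57BL/6J, with medians of 3881 and 3174.5 UMIs a cell. The authors' 13 clusters are RPE (cluster 1), ECs with high, medium and low Kdr (2, 3 and 4), stromal cells (5 to 8), smooth muscle cells (9), melanocytes (10), hematopoietic cells (11) and Schwann cells (12 and 13). The defining markers of ECs, stroma, smooth muscle, melanocytes, blood cells and Schwann cells were all highest in their own clusters in both libraries. For RPE this held for 3 of 4. The authors made the clusters from these same counts and named them by known markers, so this order is no independent result. Between the libraries, 22 cell barcodes recur. Levels are summed UMIs of a gene per 10,000 UMIs of all genes in a cluster, with exact Poisson 95% intervals that cover counting error only. With 1 library per strain, no difference between clusters or strains was tested.

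Promoter sequences are shown for Otx2, Six3, Prrx1 and Prrx2, which carry the contrasts between RPE, endothelium and stroma below. Each runs from 250 bases before to 50 bases after a RefSeq start site on GRCm38.p6, the assembly of mm10, on which the deposited reads were aligned. Promoters were found for 8 of the 9 genes. Capitals mark, on either strand, the homeodomain core TAATTA, its variant TAATCC, the Meis word TGACAG, the ETS word CGGAAG and the Sp/KLF word GGGCGG. Of 32851 promoters of this length, 5.29% hold TAATTA, 7.06% TAATCC, 19.2% TGACAG, 16.9% CGGAAG and 35.7% GGGCGG.
Otx2, minus strand, chr14:48665060-48665359: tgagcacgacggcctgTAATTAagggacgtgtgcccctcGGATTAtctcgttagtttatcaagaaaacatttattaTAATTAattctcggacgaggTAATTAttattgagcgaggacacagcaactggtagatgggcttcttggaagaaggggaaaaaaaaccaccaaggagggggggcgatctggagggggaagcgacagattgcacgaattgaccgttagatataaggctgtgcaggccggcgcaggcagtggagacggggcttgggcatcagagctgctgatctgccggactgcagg
Six3, plus strand, chr17:85620584-85620883: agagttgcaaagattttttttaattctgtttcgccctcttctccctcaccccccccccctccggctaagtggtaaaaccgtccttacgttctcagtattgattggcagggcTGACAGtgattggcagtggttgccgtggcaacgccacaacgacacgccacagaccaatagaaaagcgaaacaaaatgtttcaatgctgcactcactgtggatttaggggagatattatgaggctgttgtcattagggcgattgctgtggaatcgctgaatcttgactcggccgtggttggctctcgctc
Prrx1, minus strand, chr1:163313601-163313900: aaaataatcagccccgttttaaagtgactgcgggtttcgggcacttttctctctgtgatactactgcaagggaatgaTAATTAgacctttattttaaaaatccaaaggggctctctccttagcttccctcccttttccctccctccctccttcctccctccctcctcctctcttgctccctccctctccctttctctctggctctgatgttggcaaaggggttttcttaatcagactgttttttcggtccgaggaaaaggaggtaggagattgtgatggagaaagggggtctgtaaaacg
Prrx2, plus strand, chr2:30845117-30845416: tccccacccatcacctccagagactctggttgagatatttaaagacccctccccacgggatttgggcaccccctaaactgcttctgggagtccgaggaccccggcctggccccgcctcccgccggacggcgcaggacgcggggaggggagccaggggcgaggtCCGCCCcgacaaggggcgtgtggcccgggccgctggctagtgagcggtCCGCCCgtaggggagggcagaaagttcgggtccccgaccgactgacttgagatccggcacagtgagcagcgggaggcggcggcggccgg
The Otx2 window shown, the third of 4 entries for this gene, was chosen for having the most matches among the 4, whose counts of TAATTA are 1, 0, 3 and 0. It holds TAATTA 234, 174 and 154 bases before the start, and TAATCC once. The Six3 window holds TGACAG 139 bases before the start. Prrx1 and Prrx2, close relatives in sequence, differ here: the Prrx1 window has 47.7% G and C, 6 CpG and 1 TAATTA, whereas the Prrx2 window has 70.3% G and C, 28 CpG and 2 copies of GGGCGG, beside medians of 52.7% and 7 CpG over all promoters. Such matches are a description of letters and no binding was measured.

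Otx2, which directs RPE identity, was found almost wholly in RPE. The gene lies at chr14:48657677-48673819 on the minus strand. Its RPE level was 3.71 UMIs per 10,000 (3.50 to 3.94) in B6129PF1/J and 3.03 (2.77 to 3.29) in C57BL/6J. A UMI was seen in 77.9% of 407 and 62.0% of 374 RPE cells. RPE held 1114 of 1146 Otx2 UMIs in the first library and 529 of 562 in the second. No other cluster passed 0.0791 in B6129PF1/J or 0.0495 in C57BL/6J, and among those 12 clusters neighbours in the order did not differ beyond their intervals. The antisense model Otx2os1 overlaps the gene.

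Six3, an eye field gene at chr17:85613608-85629302 on the plus strand, had its highest levels not in RPE but in ECs. In Kdr high ECs it reached 17.1 UMIs per 10,000 (16.5 to 17.7) in B6129PF1/J and 15.1 (14.5 to 15.7) in C57BL/6J, with a UMI in 96.5% and 94.8% of cells. Kdr medium ECs had 10.2 (9.82 to 10.6) and 9.64 (9.27 to 10.0). Kdr low ECs had 3.76 (3.12 to 4.48) and 3.60 (2.98 to 4.30). The order high, medium, low was the same in both libraries and no pair of neighbouring intervals overlapped. ECs together held 91.3% of the 6406 Six3 UMIs of B6129PF1/J and 94.0% of the 5826 of C57BL/6J.

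**Figure D1:**
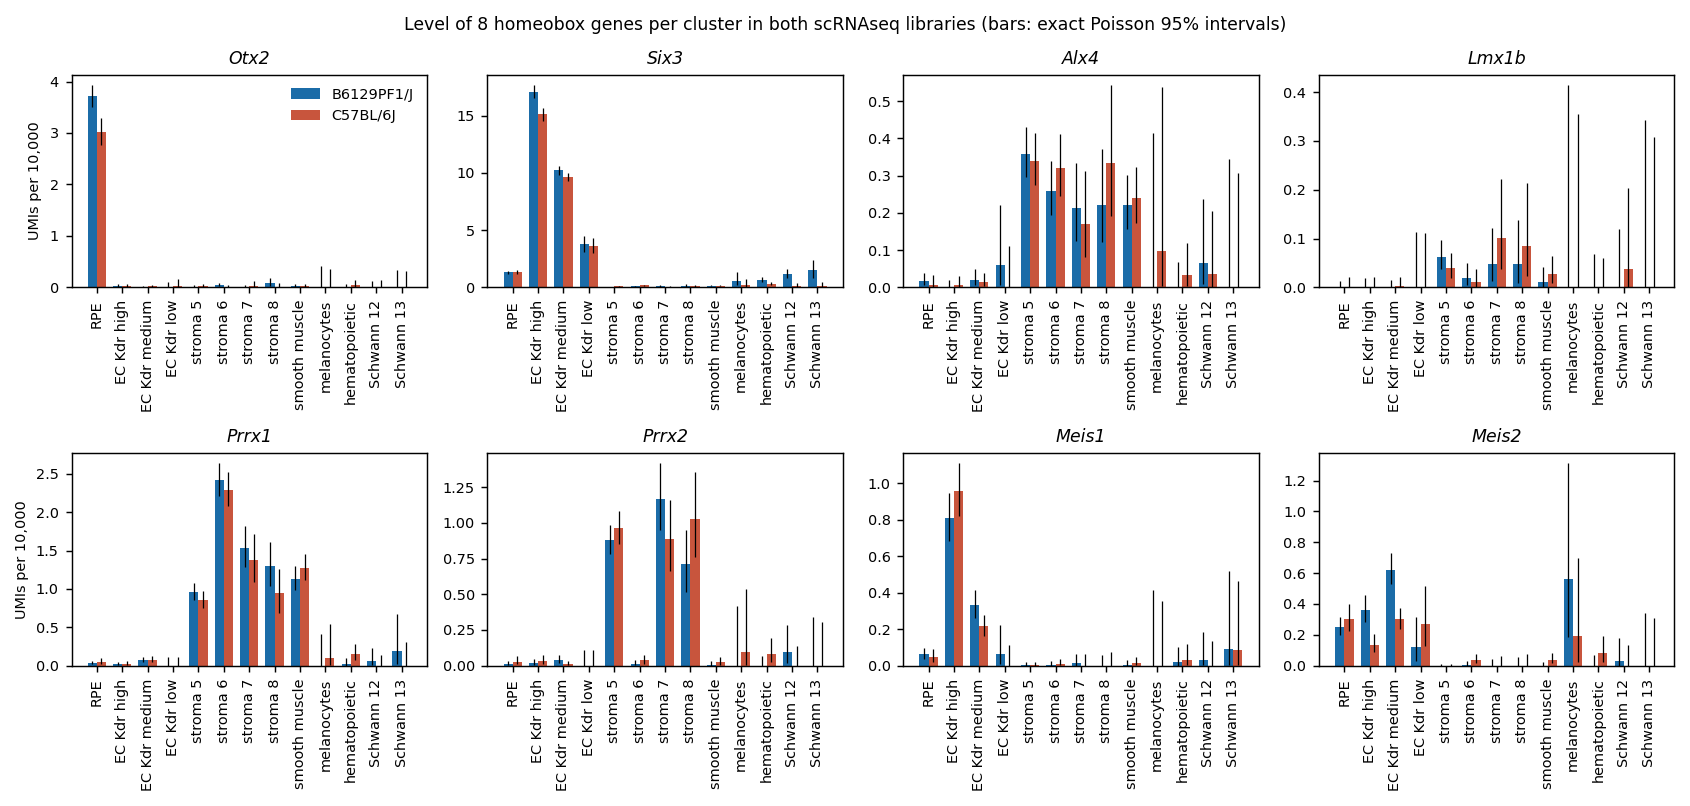
Levels of the 8 genes with rows in the count tables, in UMIs per 10,000 (vertical axes, each panel on its own scale), per cluster (horizontal axes) for B6129PF1/J (blue) and C57BL/6J (red); black lines are exact Poisson 95% intervals. Otx2 stands out in RPE, Six3 and Meis1 in ECs, Prrx1 in stroma and smooth muscle, and Prrx2 in stromal clusters 5, 7 and 8 but not 6.

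RPE was the next class for Six3, with 1.33 UMIs per 10,000 (1.20 to 1.46) in B6129PF1/J and 1.34 (1.18 to 1.53) in C57BL/6J, and a UMI in 51.6% and 39.0% of cells. Since free RNA from ECs can enter droplets of other cells, this level was set beside endothelial genes in the same RPE cells. The RPE level of Six3 was 7.76% and 8.90% of its highest endothelial level. For Plvap, the diaphragm protein of fenestrated endothelium, the share was 0.366% and 0.521%, and for Kdr, the VEGF receptor, it was 0.284% and 0.327%. Over the 8 endothelial genes Plvap, Kdr, Cdh5, Pecam1, Cldn5, Flt1, Esm1 and Ihh it ran from 0.0706% to 0.646%, below the share of Six3. Meis1, described below, had a share of 7.84% and 4.78%. In the hematopoietic cells, the corresponding share of Six3 was 3.74% and 1.86%. The range for the 8 endothelial genes was 0.652% to 3.11% and 0.491% to 3.95%. At full depth, Six3 thus lay above all 8 in B6129PF1/J and within their range in C57BL/6J. The 35 Six3 UMIs of B6129PF1/J came from 7 of 106 hematopoietic cells, with 19 in 1 cell. With cells thinned to equal depth, Six3 in that library was 0.333 in hematopoietic cells and 15.7 in Kdr high ECs. Kdr was 0.388 and 16.8, so the share of Six3 was then not above that of Kdr. Plvap had a UMI in 22.9% of RPE cells with Six3 and 10.7% of those without it in B6129PF1/J, and in 22.6% and 11.4% in C57BL/6J, at unequal depth. Without RPE cells that held a Plvap UMI, a comparison added after the data were seen, Six3 in RPE was 1.35 (1.20 to 1.51) in B6129PF1/J and 1.28 (1.10 to 1.49) in C57BL/6J. Leaving out such cells does not remove free Six3 RNA from the rest. The part of free RNA in the Six3 level of RPE was not tested.

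**Figure D2:**
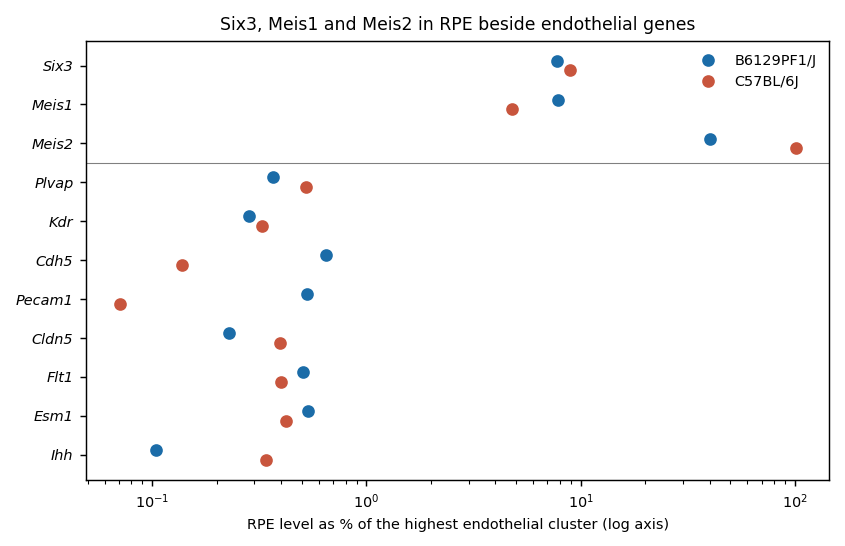
RPE level of each gene as a percentage of its level in the endothelial cluster where it was highest (horizontal log axis), for B6129PF1/J (blue) and C57BL/6J (red). Above the grey line, Six3 lies at 7.76% and 8.90%, with Meis1 and Meis2 below it in the list, and the 8 endothelial genes under the line lie between 0.0706% and 0.646%.

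Outside RPE and ECs, Six3 was low in stroma and uneven in the small clusters. The 4 stromal clusters together had 0.0702 UMIs per 10,000 (0.0515 to 0.0933) in B6129PF1/J and 0.115 (0.0890 to 0.146) in C57BL/6J. In stromal cluster 5 its share of the highest endothelial level was 0.221% and 0.669%, beside 0.295% to 1.56% and 0.371% to 1.90% for the 8 endothelial genes. Schwann clusters 12 and 13 of B6129PF1/J read 1.14 and 1.49, against 0.147 and 0.0835 in C57BL/6J. Those 51 UMIs of B6129PF1/J came from 5 of 138 Schwann cells, all 5 of which also held Plvap, with a median of 24 Plvap UMIs. In C57BL/6J, 5 of 154 Schwann cells held 1 Six3 UMI each; 40% of these 5 held Plvap, with a median of 0 Plvap UMIs.

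In RPE, Six3 was found both in cells with and in cells without Otx2. After each cell had been thinned to 1700 UMIs, Six3 had a UMI in 18.0% of RPE cells with Otx2 and 17.9% of those without it in B6129PF1/J. In C57BL/6J these shares were 23.4% and 18.0%. Cells with both numbered 33 in each library, and cells with Six3 alone 40 and 42.

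Meis1 and Meis2, the TALE genes, also had most of their UMIs in ECs, Meis2 less so than Meis1, and were spread differently over the EC clusters. Meis1, at chr11:18879817-19018985 on the minus strand, had 0.808 UMIs per 10,000 (0.686 to 0.947) in Kdr high ECs of B6129PF1/J and 0.958 (0.822 to 1.11) in those of C57BL/6J. Kdr medium ECs had 0.332 (0.263 to 0.413) and 0.215 (0.163 to 0.278), below Kdr high ECs in both libraries with intervals apart. In Kdr low ECs, 2 UMIs and 0 UMIs were counted. ECs held 90.1% of 262 and 93.2% of 250 Meis1 UMIs. In RPE, Meis1 had 19 and 8 UMIs, and in stromal clusters together 3 in each library. The Kdr medium cells with a Meis1 UMI were few once depth was made equal, 12 of 430 and 15 of 549, and the thinned level was 0.164 and 0.161.

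Meis2, at chr2:115863064-116065839 on the minus strand, lacked this gradient. Its level in Kdr high, medium and low ECs was 0.362, 0.622 and 0.122 UMIs per 10,000 in B6129PF1/J and 0.137, 0.301 and 0.272 in C57BL/6J. In both libraries the medium cluster lay above the high cluster, with intervals of 0.526 to 0.730 against 0.282 to 0.458 and of 0.239 to 0.374 against 0.0886 to 0.202. These intervals do not allow for several UMIs in 1 cell. By share of cells with a UMI, the intervals overlapped in B6129PF1/J, at 12.5% to 19.6% against 6.91% to 13.2%. In C57BL/6J they were narrowly apart, at 7.64% to 12.8% against 3.06% to 7.56%. RPE had 0.25 (0.197 to 0.313) and 0.303 (0.227 to 0.397), and in C57BL/6J it did not differ from Kdr medium ECs beyond the intervals. The RPE level was 40.2% and 101% of the highest endothelial one. In melanocytes 5 and 2 UMIs were counted in 16 and 26 cells. Stromal clusters 5, 7 and 8 held no Meis2 UMI in either library.

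Within Kdr medium and Kdr high ECs, Meis2 was more frequent in cells without Six3, a comparison chosen after the values had been seen. At 1700 UMIs a cell, Meis2 had a UMI in Kdr medium ECs in 4.81% of the 270 cells with Six3 and 13.1% of the 160 without it in B6129PF1/J. The shares in C57BL/6J were 3.82% of 340 and 7.66% of 209 cells. As a level, Meis2 was 0.283 UMIs per 10,000 (0.151 to 0.484) with Six3 and 1.03 (0.684 to 1.49) without it in the first library, and 0.225 (0.120 to 0.385) and 0.732 (0.478 to 1.07) in the second, with intervals apart in both. In Kdr medium ECs endothelial genes differed along the same split: Kdr was 7.45 with Six3 and 3.38 without it in B6129PF1/J and 4.53 and 2.81 in C57BL/6J, and Mgp, a matrix protein, was 44.3 and 81.1, and 35.0 and 53.8. Their part in the difference of Meis2 was not tested. In Kdr high ECs, Meis2 was 0.180 (0.0863 to 0.331) with Six3 and 1.78 (0.947 to 3.04) without it in B6129PF1/J. In C57BL/6J it was 0.0997 (0.0366 to 0.217) and 0.840 (0.338 to 1.73). These levels rest on 10 UMIs in 9 of 327 cells and 13 UMIs in 4 of 43 cells in B6129PF1/J. In C57BL/6J they rest on 6 UMIs in 6 of 354 cells and 7 UMIs in 5 of 49 cells. The intervals do not allow for several UMIs falling in 1 cell. For Kdr, intervals overlapped in Kdr high ECs, at 16.7 and 17.5 and at 13.8 and 12.5.

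Prrx1, a gene of limb and craniofacial mesenchyme at chr1:163245119-163313710 on the minus strand, was found in every stromal cluster and in smooth muscle. It was highest in stromal cluster 6, with 2.42 UMIs per 10,000 (2.21 to 2.64) in B6129PF1/J and 2.29 (2.08 to 2.52) in C57BL/6J. Cluster 7 followed at 1.53 (1.28 to 1.82) and 1.38 (1.09 to 1.71), below cluster 6 with intervals apart. Smooth muscle cells had 1.13 (0.981 to 1.30) and 1.28 (1.12 to 1.45), cluster 8 had 1.30 and 0.942, and cluster 5 had 0.960 and 0.852. From cluster 7 down to cluster 5, neighbours in the order did not differ beyond their intervals. The ends of this order did: cluster 5, at 0.856 to 1.07 and 0.747 to 0.968, lay below cluster 7 with intervals apart in both libraries. In C57BL/6J cluster 5 also lay below smooth muscle with intervals apart. ECs held 21 of 1248 and 25 of 1071 Prrx1 UMIs.

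Prrx2, its close relative at chr2:30834972-30881251 on the plus strand, was found in stromal clusters 5, 7 and 8 but hardly in cluster 6 or in smooth muscle. Cluster 5 had 0.879 UMIs per 10,000 (0.778 to 0.988) in B6129PF1/J and 0.960 (0.849 to 1.08) in C57BL/6J. Cluster 7 had 1.17 (0.948 to 1.42) and 0.885 (0.661 to 1.16), and cluster 8 had 0.712 (0.519 to 0.952) and 1.03 (0.759 to 1.36), so the order of these 3 clusters differed between the libraries. In cluster 6, where Prrx1 peaked, Prrx2 had 3 UMIs in 541 cells and 7 in 603 cells, levels of 0.0147 (0.00303 to 0.0429) and 0.0368 (0.0148 to 0.0759). Smooth muscle cells held 1 and 4 UMIs of Prrx2 against 201 and 229 of Prrx1. The stromal clusters together held 95.3% and 94.0% of all Prrx2 UMIs.

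Cells with both Prrx genes were few at a depth of 1700 UMIs. In cluster 5, 19 cells had both, 87 Prrx1 alone and 90 Prrx2 alone of 848 in B6129PF1/J; in C57BL/6J these numbers were 16, 87 and 99 of 839. Cluster 7 had 10 of 185 and 3 of 158 cells with both, and cluster 8 had 6 of 160 in each library. In cluster 6, 173 and 189 cells had Prrx1 and 0 and 1 had Prrx2 alone, with none holding both. Across the 4 stromal clusters, Prrx2 had a UMI in 9.97% of cells with Prrx1 and 9.11% of cells without it in B6129PF1/J, and in 7.29% and 9.88% in C57BL/6J. These totals include cluster 6, which had the most Prrx1 and hardly any Prrx2. In cluster 5 alone the shares were 17.9% and 12.1% in B6129PF1/J and 15.5% and 13.5% in C57BL/6J. In cluster 8 they were 20.7% and 6.87%, and 26.1% and 14.6%. In cluster 7 they were 23.3% and 19%, and 10.7% and 15.4%. As counted, the share was higher in cells with Prrx1 in both libraries for clusters 5 and 8, and in B6129PF1/J for cluster 7. These shares have no intervals, rest on few cells with both genes, and were not tested.

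**Figure D3:**
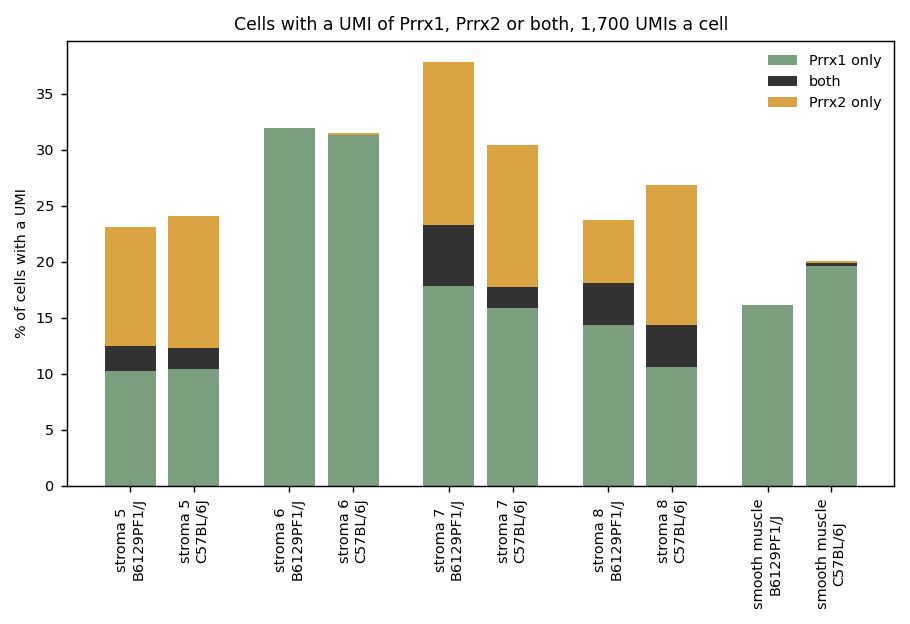
Share of cells (vertical axis, %) with a UMI of Prrx1 only (green), both (black) or Prrx2 only (yellow) after thinning to 1700 UMIs a cell, in stromal clusters 5 to 8 and smooth muscle of both libraries. In stroma 6 and smooth muscle nearly every bar is Prrx1 only, with 0 and 1 cells of stroma 6 holding Prrx2.

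Alx4, a craniofacial gene at chr2:93642384-93681339 on the plus strand, was even over stroma and smooth muscle. Its levels in clusters 5 to 9 lay between 0.212 and 0.359 UMIs per 10,000 in B6129PF1/J and between 0.170 and 0.339 in C57BL/6J, and neighbours in the order did not differ beyond their intervals. Cluster 5 was first in both, with 0.359 (0.296 to 0.431) and 0.339 (0.274 to 0.415), from 114 and 94 UMIs. Stromal cells and smooth muscle cells held 199 and 39 of 252 Alx4 UMIs in the first library and 181 and 43 of 234 in the second. ECs held 7 and 5. Ext2 overlaps Alx4 on the other strand.

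Lmx1b, needed for dorsal limb and anterior eye development, was at the edge of detection. The gene, at chr2:33560965-33640511 on the minus strand, had 33 UMIs in 33 cells of B6129PF1/J and 30 UMIs in 30 cells of C57BL/6J. Stromal cells held 31 and 23 of these and smooth muscle cells 2 and 5. Cluster 7 read 0.0471 (0.0128 to 0.121) and 0.102 (0.0375 to 0.222) and cluster 5 read 0.0630 (0.0385 to 0.0973) and 0.0397 (0.0198 to 0.0711); none of the stromal clusters differed from its neighbour beyond the intervals. No RPE cell had a UMI in either library, which allows up to 0.01 and 0.0172 UMIs per 10,000.

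Beside these genes, the genes most alike in pattern were listed for the 6 members with at least 200 UMIs in each library, by Pearson correlation of log2(UMIs per 10,000 + 0.01) over 26 points, the 13 clusters of both libraries. The points share libraries and clusters, and no p is given. Otx2 was closest to Slc39a12 (0.95), Krt8 (0.92) and Gsx2 (0.91). Six3 was closest to Scarb1, a lipoprotein receptor (0.92), Cmtm8 (0.89) and Ipo11 (0.88), and Meis1 to Scarb1 (0.90), Ihh (0.88) and Esm1 (0.88). Prrx1 was closest to Pde5a (0.91) and C1qtnf7 (0.90), Prrx2 to Tspan11 (0.90), Mfap4 (0.90) and Itgbl1 (0.89), and Alx4 to C1qtnf7 (0.95) and Tgfb3 (0.89).

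Other patterning genes, taken as lists, gave a frame for these levels. Of 17 eye field and RPE genes, 11 had a row and 3 reached 1 UMI per 10,000 in some cluster of both libraries: Mitf in melanocytes (3.72 and 5.20), Sox9 in stromal cluster 8 (2.25 and 2.22) and Tbx2 in smooth muscle (1.39 and 1.08). Of 24 periocular mesenchyme genes, 19 had a row and 3 reached 1, among them Foxc1 in cluster 7 (2.25 and 1.60) and Msx1 in Kdr low ECs (1.56 and 1.18). Among 16 TALE genes, 15 had a row and 3 reached 1, among them Irx3 in Kdr high ECs (1.88 and 1.99) and Tgif1 in hematopoietic cells (1.70 and 1.29). Meis2 stayed under 1 in every cluster of both libraries, and so did Meis1 at full depth, although in Kdr high ECs of C57BL/6J it read 1.23 thinned to 1700 UMIs and 1.17 as a mean over cells. Of the other Six, Zic and Lmx genes, 4 of 9 had a row, among them Six2 (0.0819 and 0.0939) and Six5 (0.0724 and 0.0686), both in cluster 5. Of 9 endothelial and smooth muscle genes, 7 had a row and 2 reached 1, Heyl in cluster 6 (3.56 and 3.23) and Hlx in Kdr high ECs (2.71 and 2.87); Hhex in Kdr low ECs had 1.13 and 0.846. Only 4 Hox genes had a row, and Hoxb4, with 4 and 5 UMIs in hematopoietic cells, was the one with UMIs in the same cluster of both libraries.

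Between the strains, intervals were compared for the 31 pairs of gene and cluster with at least 20 UMIs over both libraries. They were apart in 6 pairs, beside 7.35% of 88444 such pairs over all genes. Otx2 in RPE was 1.23 times as high in B6129PF1/J (1.11 to 1.36) and Six3 in Kdr high ECs 1.13 times (1.08 to 1.19). Meis2 was 2.65 times as high in Kdr high ECs (1.65 to 4.36), from 69 and 25 UMIs, and 2.07 times in Kdr medium ECs (1.57 to 2.75), from 150 and 81. These UMIs lay in 36 and 20 cells of Kdr high ECs and in 68 and 55 of Kdr medium ECs, with up to 14 in 1 cell. The intervals of the share of cells with Meis2 overlapped between the libraries in both clusters. The other pairs apart were Six3 in stromal cluster 5, lower at 0.374 times (0.173 to 0.759), and in Schwann cluster 12, where 3 cells held all 35 UMIs of B6129PF1/J. B6129PF1/J cells were deeper. After thinning every cell to 1700 UMIs, with fewer UMIs and wider intervals, 0 of 21 pairs were apart. The share over all genes at that depth was not computed, and the part of depth in the 6 pairs was not tested. Thinned, Meis2 in Kdr medium ECs read 0.561 and 0.418 and Otx2 in RPE 3.69 and 2.99. Alx4, Lmx1b, Prrx1 and Prrx2 had no pair apart at full depth, nor did Meis1.

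In RPE/choroid tissue, the deleted gene was looked at first. Ihh was 1.53 FPKM in Ihh+/+ and 0.454 in Ihh iΔEC/iΔEC, and its target Gli1 was 9.40 and 3.15. A gene was counted as past the fold where log2(FPKM + 0.1) differed by 2-fold or more and the higher of the means reached 1 FPKM. Over all 11411 genes at 1 FPKM or more, 1.67% were past it, 117 or 1.03% higher and 74 or 0.648% lower, and the median log2 ratio was -0.04. Of the 9 genes, all at 1 FPKM or more in one group, Zic1 alone was past it, and their median log2 ratio was 0.05.

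Otx2 and Six3 were the most abundant per length in this tissue. Otx2 was 84.8 FPKM in Ihh+/+ and 106 in Ihh iΔEC/iΔEC, a log2 ratio of 0.32. Of the 4 RPE markers, Rpe65 was 682 and 914, Rlbp1 606 and 703 and Ttr 4634 and 5454. Best1, under 1 FPKM, hardly differed, at 0.561 and 0.574. All 4 summed to 5923 and 7072, mostly from Ttr. The antisense Otx2os1 was 8.09 and 10.3. Six3 was 24.9 and 25.7, a log2 ratio of 0.05, beside EC markers summing to 69.7 and 60.4. Six3os1 read 23.2 and 24.4. The library kit, as named, does not mark strand, so reads from stretches where a gene and an antisense model overlap cannot be told apart. A model on the other strand overlaps Otx2, Six3, Alx4, Lmx1b, Prrx1, Meis1 and Zic1. Ext2, opposite Alx4, was 16.4 FPKM in Ihh+/+ and 14.2 in Ihh iΔEC/iΔEC. In GLI1+ cells Ext2 was 44.7 in DMSO and 47.9 in SAG.

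The mesenchymal genes were slightly lower, with ratios of Ihh iΔEC/iΔEC to Ihh+/+ between 0.782 and 0.969. Alx4 was 5.97 and 4.67 FPKM, Lmx1b 1.61 and 1.34, Prrx1 3.93 and 3.66 and Prrx2 5.55 and 5.37, with log2 ratios of -0.35, -0.24, -0.10 and -0.05. All 4 were lower in Ihh iΔEC/iΔEC, and so were the 6 stromal markers, which summed to 732 and 469. Fewer stromal cells and less RNA per cell cannot be told apart in tissue. Meis1 was 1.60 and 1.78 and Meis2 2.18 and 2.96, log2 ratios of 0.15 and 0.42.

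Zic1, at chr9:91358058-91365810 on the minus strand, was 0.410 FPKM in Ihh+/+ and 1.93 in Ihh iΔEC/iΔEC, a ratio of 4.70 and a log2 ratio of 1.99. The value is a mean of 3 libraries each, and how the single libraries lay is unknown. Zic4, which overlaps it on the other strand, was 0.102 and 0.423, and the related Zic2 was 0.299 and 1.39. Other genes moved with it. The eye field list had 4 of 10 genes at 1 FPKM or more past the fold upwards, among them Pax6 (0.570 and 5.62), Otx1 (0.282 and 1.43) and Rax (0.892 and 2.16), and Crx downwards (1.19 and 0.361), with a median log2 ratio of 0.34. The corneal keratin Krt12 was 0.861 and 16.4, and Krt14, of stratified epithelium, 0.00667 and 4.28. All 4 photoreceptor markers were past the fold downwards and summed to 73.6 and 26.2 FPKM, with Gnat1 at 25.5 and 10.8. Among lens markers, Cryaa was 0.023 and 0.329 and Cryba1 was listed at 0 in Ihh+/+ and at 0.163 in Ihh iΔEC/iΔEC. Muscle markers summed to 152 and 212. The list taken for iris and ciliary epithelium, Wfdc1, Opn1mw and Zic2, summed to 19.8 and 15.1, of which Wfdc1 made up 19.1 and 13.6. Opn1mw was 0.467 and 0.096, lower in Ihh iΔEC/iΔEC as the photoreceptor markers were. The sum thus mostly follows Wfdc1 and does not measure iris or ciliary epithelium. Zic2, on the same list, was higher in Ihh iΔEC/iΔEC, as given above. The 1 gene of this list with single-cell counts was highest in stromal cluster 7 of B6129PF1/J and in Kdr high ECs of C57BL/6J. The dissection, by the study's methods, discarded the anterior segment. The part of such tissue in the value of Zic1 was not tested.

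**Figure D4:**
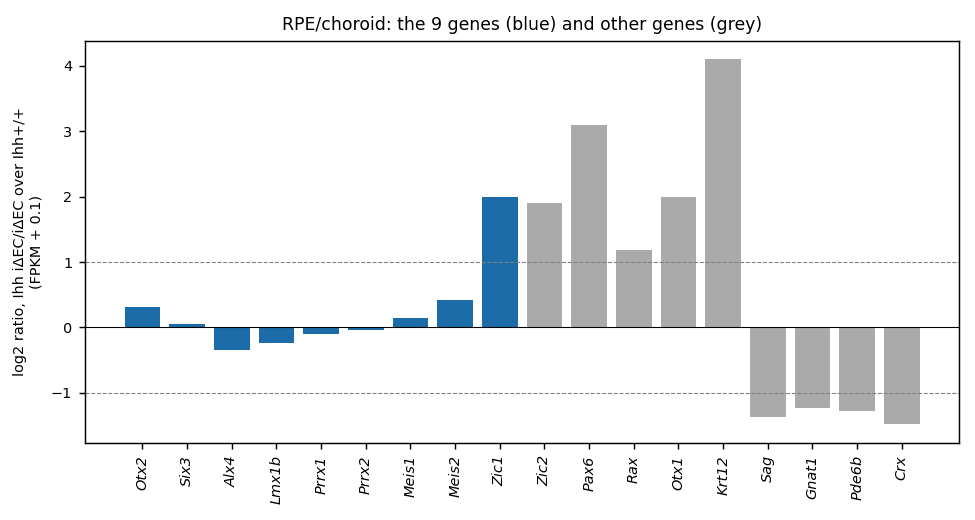
Log2 ratio of group mean FPKM + 0.1, Ihh iΔEC/iΔEC over Ihh+/+ (vertical axis), of the 9 genes (blue) and of other genes named beside Zic1 (grey); dashed lines mark 2-fold. Zic1 at 1.99 is the one blue bar past 2-fold, with Zic2, Pax6, Rax, Otx1 and Krt12 above the line and Sag, Gnat1, Pde6b and Crx below it.

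The other lists held few genes past the fold. None of 11 periocular mesenchyme genes at 1 FPKM or more passed it, and their median log2 ratio was -0.51. The same held for 13 TALE genes (-0.26) and 4 endothelial and smooth muscle genes (-0.41). Of 4 other Six, Zic and Lmx genes, Zic2 passed it upwards, with a list median of -0.23. None of the 13 Hox genes reached 1 FPKM in either genotype.

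GLI1+ cells in culture held the mesenchymal genes of the set and hardly any of the others. In DMSO, Prrx2 was 73.5 FPKM, Prrx1 71.4, Alx4 15.4 and Lmx1b 13. All 4 were higher per length than in Ihh+/+ tissue, where they lay between 1.61 and 5.97; the tables were made separately and this gap was not tested. Meis2 was 0.708, Meis1 0.548, Otx2 0.0587 (0.147 in SAG), Six3 0.0493 and Zic1 0.0103. EC markers summed to 0.267 FPKM and RPE markers to 4.32, against 4184 for stromal markers.

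With SAG, Hedgehog targets were past the fold and none of the set was. Gli1 was 0.028 FPKM in DMSO and 3.65 in SAG, and Ptch1 1.13 and 10.1. Of 10325 genes at 1 FPKM or more, 1.47% were past 2-fold, 38 or 0.368% higher and 114 or 1.1% lower. None of the 4 members at that level was among them: Prrx1 was 60.8 in SAG, Prrx2 69.1, Alx4 15.3 and Lmx1b 13.8, with log2 ratios of -0.23, -0.09, -0.01 and 0.08. Their median was -0.05, beside 0.06 over all genes. Of 14 periocular mesenchyme genes, Foxc2 passed the fold upwards (2.57 and 5.41). No TALE gene of 13 did so.

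**Figure D5:**
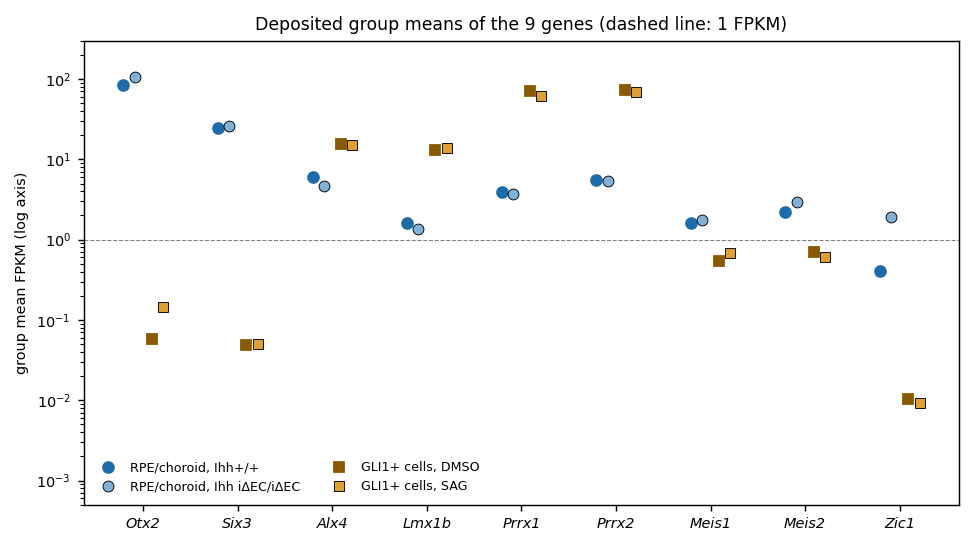
Group mean FPKM (vertical log axis) of the 9 genes in RPE/choroid of Ihh+/+ (dark blue) and Ihh iΔEC/iΔEC mice (light blue) and in GLI1+ cells with DMSO (brown) and SAG (orange); each point is the authors' mean of 3 libraries. Prrx1, Prrx2, Alx4 and Lmx1b lie highest in GLI1+ cells, from 13 to 73.5 FPKM, and Otx2 and Six3 in tissue.

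Of the 9 genes, Six3 and Alx4 are among the 99 rows of the endothelial table, which the authors had limited to genes enriched in choroidal ECs, so their presence is no independent result. Six3 was 51.3 FPKM in choroidal ECs, whose libraries are not samples of this series, and 2.04 in neural retina ECs, 0.002 in lung, 0.01 in liver and 0 in heart. Alx4 was 3.08 in choroidal ECs, 0.084 in retina, 0.005 in lung, 0.002 in liver and 0.016 in heart. These are the authors' means, with no spread. Six3os1 had 45.9 in choroidal ECs and 1.53 in retina. The table also holds genes of other cells: of its 97 rows with single-cell counts, 25 were highest in ECs, 19 in RPE and 34 in stromal cells in both libraries. Rpe65, an RPE gene, was 21.8 FPKM in choroidal ECs, and the stromal gene Gli1 was 3.58. The part of such RNA in the values of Alx4, which was stromal in the single cells, was not tested.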

How the data were processed

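Samples were grouped by the labels. Per the labels, the deposited counts are UMIs per gene and cell from Cell Ranger (mm10), and the authors removed cells under 1700 UMIs and clustered the rest in Seurat 2.1. The authors' average per cluster is on a natural log scale and served here only to find the highest cluster. Reads of tissue, cultured cells and sorted ECs were aligned with STAR 2.4.0f1, and the authors deposited FPKM from Cufflinks 2.0.2 as group means, of 3 libraries each for tissue and cultured cells. Columns that hold the study's own fold changes and p-values were left aside. The choroidal EC column was read as the authors' mean.

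UMIs were summed per deposited cluster and library (Python 3.11.15, numpy 2.4.6, scipy 1.17.1), with exact Poisson intervals for levels and Clopper-Pearson intervals for shares at 95%. Shares of cells split by a UMI of another gene had no interval. The intervals describe counting alone. Where no UMI was seen, 3 were allowed. Thinning drew 1700 UMIs from each cell, and doublets were kept. Totals were 17168578 and 15230413 UMIs, whereas the depth behind FPKM is unknown. Ratios used FPKM + 0.1, a fold of 2 and a minimum of 1 FPKM. Alternatives were pseudocounts of 0.01 and 1, a fold of 1.5, no minimum and rescaling. The calculations were tested on simulated data.

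The 9 genes and the lists were chosen with earlier results of these data known. Named were all 9 genes, the 3 most alike genes of each, the 3 genes of each list with the highest cluster level, taken in the lower library, overlapping gene models and cell type markers. Genes named as past the fold, the Hedgehog targets, Krt12, Krt14, Mgp and the non-member genes of the endothelial table were chosen after their values were seen. Gene positions are from GENCODE vM21. Some genes that these rules name are not reported here. Protein sequences were not used here.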

Additional observations from a re-analysis of the deposited data

How the results depend on the processing

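No paired analysis was possible because the tables of tissue and cultured cells hold 1 mean per group; leaving out single libraries was not run for the same reason. The counts of genes past 2-fold, 1 of 9 after Ihh deletion and 0 after SAG, were the same with pseudocounts of 0.01 and 1, without a minimum FPKM, after rescaling by the median ratio and with a fold of 1.5. The log2 ratio of Zic1 was 2.20 with a pseudocount of 0.01 and 1.05 with 1. Over all genes, the Ihh count of 191 was 106 with a pseudocount of 1, 506 with a fold of 1.5 and 444 without a minimum; the SAG count of 152 was 379 and 240 under the last pair. Levels in the highest cluster moved beyond their counting interval as follows. Six3 in Kdr high ECs was 15.7 and 14.3 thinned to 1700 UMIs and 16 and 14.3 as a mean over cells, and Meis1 was 0.954 and 1.23 thinned and, in C57BL/6J, 1.17 as a mean over cells. Between libraries, Otx2 (3.71 and 3.03), Six3 (17.1 and 15.1), Prrx2 (0.885 in cluster 7 of C57BL/6J, 0.712 in cluster 8 of B6129PF1/J), Meis1 (0.808 and 0.958) and Meis2 in Kdr medium ECs (0.301 in C57BL/6J) lay outside the other's interval. Thinning took the strain pairs with intervals apart from 6 to 0, with fewer UMIs and wider intervals by construction. The share of such pairs over all genes was not computed after thinning. The cluster with the highest level was another one under some settings for Lmx1b, Prrx2 and Meis2; the cause was not tested. Leaving out cells with both Xist and Ddx3y, 35 and 33 likely doublets, moved no level in a highest cluster beyond its interval. Without cells holding Plvap, a setting added after seeing the data, 3 results moved and 3 did not. Under it Six3 read 1.35 and 1.28 in RPE. The FPKM tables hold no depth, so the precision of values under 1 FPKM is unknown.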
